A study of Saccharomyces cerevisiae with 3 samples.

Results

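Late ergosterol synthesis, the part of the sterol pathway that runs from squalene to ergosterol, was followed in budding yeast, Saccharomyces cerevisiae, through 10 genes: ERG1, ERG7, ERG11, ERG24, ERG25, ERG26, ERG27, ERG6, ERG2 and ERG3. A gene was taken as measured where its symbol stood in the platform annotation of the array, and all 10 were, out of 5539 named genes. Each of the 10 had 2 spots on every array. Wild-type cells exposed to 0.2 mM arsenite, As(III), for 1 h were set against untreated wild-type cells, and no strain background beyond wild type is given in the labels. RNA of both was hybridised together on each of 3 two-colour arrays, so that an array gives 1 treated-to-untreated ratio for a spot, with the treated RNA in Cy5 on the first pair of replicates and in Cy3 on replicate 3. Separate cultures are not named in the labels, so the p-values below rest only on the spread between these 3 arrays, which may be technical. Limma, the test used, draws each gene's standard error mostly from the spread of all genes over these arrays. That standard error can therefore be smaller or larger than the SD printed for the gene would give.

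Ergosterol is the main sterol of yeast membranes, as cholesterol is in animals. Its synthesis from squalene takes place largely in the membrane of the endoplasmic reticulum, and several of its steps consume molecular oxygen: the epoxidation of squalene (ERG1), the removal of a methyl group at carbon 14 of lanosterol (ERG11), the oxidation of the methyl groups at carbon 4 (ERG25) and the desaturation at carbon 5 (ERG3). The remaining genes encode the cyclase that makes lanosterol (ERG7), a C-14 reductase (ERG24), the dehydrogenase and ketoreductase that work with ERG25 (ERG26 and ERG27), a C-24 methyltransferase (ERG6) and a C-8 isomerase (ERG2). Upc2 and Ecm22 are transcription factors that activate many of these genes when sterols run low, and azole antifungals act on the product of ERG11.

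Values are given on the log2 scale as treated over untreated, each array centred on its median over the named genes, with the column of replicate 3 multiplied by -1 for its exchanged dyes. The direction is likely rather than stated: the deposited columns were taken as Cy5 divided by Cy3, and all signs would turn were the division the other way round. The titles name the treated cells first for all 3 arrays, also for replicate 3 with the treated RNA in Cy3. Their order therefore does not settle that of the dyes. What bears on the direction is ARR3, which encodes the plasma membrane exporter of arsenite. With the columns taken as above, ARR3 had 1.62, 1.75 and 2.10 on replicates 1, 2 and 3. Replicate 3 as deposited correlated with replicates 1 and 2 at r = -0.782 and -0.613 over all spots, as a column not yet turned would where the treatment outweighs dye bias. No source names the logarithm's base, which was taken to be 2; with natural logarithms the printed ratios and folds would all be larger in size, while the tests against 0 would stay as they are. Before centring, the median over named genes was -0.10, 0.52 and -0.14 on replicates 1, 2 and 3 after turning. A single spot had an SD of 0.19 to 0.22 between duplicates. The table holds ratios only, so the level of a transcript, and with it the identity of the cells, could not be checked, and a ratio cannot tell fewer cells with a transcript from less of it per cell. Of 8 markers of meiosis and sporulation, another state that a yeast culture can hold, 3 rose and 0 fell by limma. At an unadjusted p of 0.05, 0 fell too. Over all genes 14.5% rose and 18.1% fell. The median of the 8 markers was 0.43, and by array it was 0.68, 0.75 and 0.035 on replicates 1, 2 and 3. The part of these markers in the results below was not tested.

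Of the 10 late synthesis genes, ERG3, ERG11, ERG1 and ERG6 fell under arsenite, 0 rose, and 6 did not pass the test. Of all named genes, 18.1% fell and 14.5% rose, 32.7% in all, by the same rule, a limma adjusted p under 0.05 with Benjamini-Hochberg adjustment over all 5539 genes. At an unadjusted p of 0.05 the count was also 4 lower and 0 higher. The median over the 10 means was -0.33, and 9 of the means lay below 0. On all 3 arrays 7 of the 10 genes lay below 0, as did 29.7% of all genes, whose median was 0.0051. Per array, the median of the 10 genes was -0.51, -0.35 and -0.70.

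**Figure D1:**
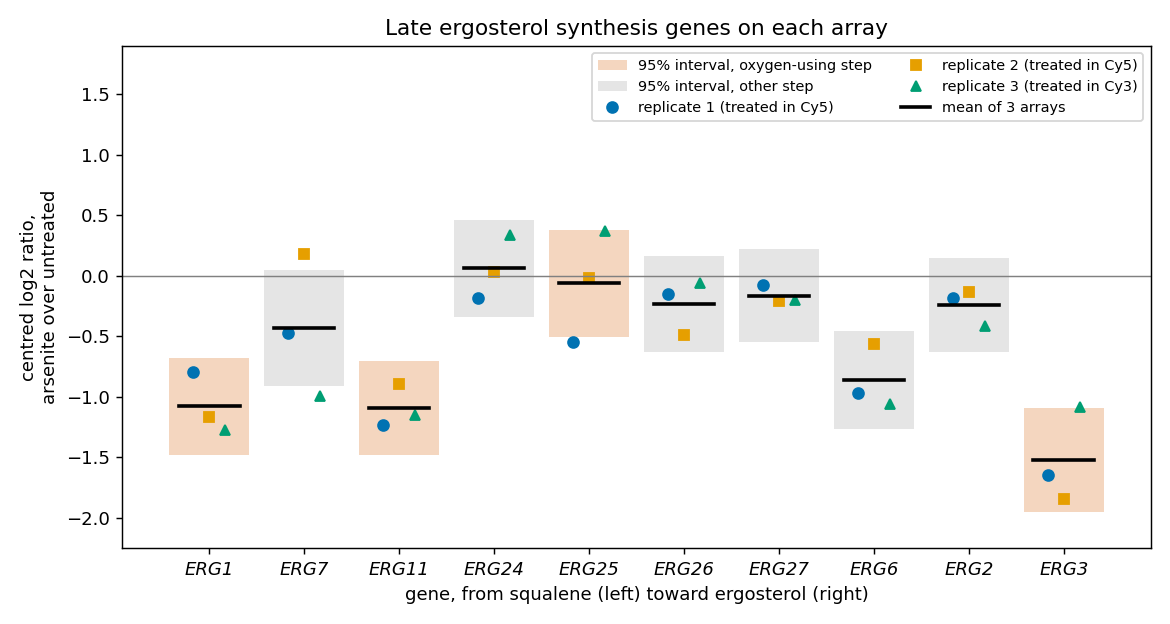
Centred log2 ratio of the 10 late ergosterol synthesis genes on each of 3 arrays, in pathway order from squalene on the left; markers are arrays, black lines are means and shaded boxes are 95% intervals from limma, coloured by whether the step uses oxygen. ERG1, ERG11, ERG6 and ERG3 lie below 0 on every array, with means of -1.08, -1.09, -0.86 and -1.52, whereas the intervals of the other 6 genes include 0.

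ERG3, the C-5 sterol desaturase, had ratios of -1.65, -1.84 and -1.08 on replicates 1, 2 and 3. It was low on every array and lowest on replicate 2. Its mean of -1.52 ± 0.39 (SD, n = 3) is a 2.87-fold lower ratio (95% interval -1.95 to -1.09, limma adjusted p = 6.48e-05), and 187 of the 5539 genes had a lower mean. ERG3 thus lay in the lowest 3.39% of genes and was the lowest of the pathway from squalene on. The gene is known from antifungal research, since cells without it tolerate azole drugs that block ERG11.

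ERG11, the cytochrome P450 that demethylates lanosterol, had -1.23, -0.89 and -1.15. The arrays lay close together, with an SD of 0.18 around a mean of -1.09 (2.13-fold lower, 95% interval -1.48 to -0.70, limma adjusted p = 0.000456). ERG1, the squalene epoxidase that opens this stretch of the pathway and the target of allylamine antifungals, had -0.79, -1.17 and -1.27. It too was below -0.7 on every array. Its mean was -1.08 ± 0.25 (SD, n = 3), 2.11-fold lower (95% interval -1.48 to -0.68, limma adjusted p = 0.000599). The ratios of ERG11 and ERG1 overlapped, and the difference between the genes changed sign between arrays.

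ERG6, which adds the methyl group that sets ergosterol apart from cholesterol, was the only gene to fall among the 6 steps that use no oxygen. Its ratios were -0.96, -0.56 and -1.05, so replicate 2 was nearest to 0. The mean was -0.86 ± 0.26 (SD, n = 3), 1.82-fold lower (95% interval -1.26 to -0.46, limma adjusted p = 0.00305). Without replicate 1 the mean was -0.81 and the call was lost (limma adjusted p = 0.0601). In that fit limma gave every gene the same standard error. It did so too without replicate 3, with a dye effect and with the arrays as deposited.

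ERG7, the lanosterol synthase, was the least repeatable of the 10. It had -0.47, 0.18 and -0.99, with replicate 2 on the other side of 0. The mean of -0.43 ± 0.59 (SD, n = 3) did not pass (limma adjusted p = 0.162). Replicate 2 decided this: without it the mean was -0.73 and the gene passed (limma adjusted p = 0.00756), and without replicate 3 the mean was -0.14. With a dye effect in the fit ERG7 also passed, with a mean of -0.57 (limma adjusted p = 0.0167), in a fit that gives all genes 1 standard error and so leaves out the gene's own spread.

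The 3 genes that act together to strip the methyl groups at carbon 4 stayed nearer to 0. ERG25, the oxidase of that complex, had -0.55, -0.017 and 0.37, which leaves its direction unsettled. Its mean was -0.062 ± 0.46 (SD, n = 3), with a 95% interval of -0.51 to 0.38. Its duplicate spots on replicate 1 differed by 0.68, the widest gap among the 10 genes. ERG26, the C-3 dehydrogenase, had -0.15, -0.49 and -0.058, and ERG27, the C-3 ketoreductase, had -0.077, -0.21 and -0.20. Both were below 0 on every array without passing, with means of -0.23 (limma adjusted p = 0.362) and -0.16 (0.518).

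Of the last 2 genes, ERG2, the C-8 isomerase, had -0.18, -0.13 and -0.41 with a mean of -0.24 ± 0.15 (SD, n = 3, limma adjusted p = 0.330). All of its arrays were slightly below 0. ERG24, the C-14 reductase that follows ERG11 directly, had -0.18, 0.035 and 0.34 and the only mean above 0 (0.062, 95% interval -0.34 to 0.46). The difference ERG11 minus ERG24 was -1.05, -0.93 and -1.49 on the 3 arrays, and the ratios of these consecutive steps did not overlap.

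Ordered from the lowest mean, the genes were ERG3, ERG11, ERG1, ERG6, ERG7, ERG2, ERG26, ERG27, ERG25 and ERG24. No neighbours in this order were separated: the arrays of each neighbouring pair overlapped, and the difference kept its sign on all 3 arrays only between ERG6 and ERG7. Some genes farther apart were separated, but not all: the ratios of ERG1 and ERG7 overlapped. For 2 oxygen-using steps, the difference ERG3 minus ERG25 had a mean of -1.46 ± 0.36 (SD, n = 3), and their ratios did not overlap.

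The oxygen-using steps had a lower median than the others on each array. Of the 4 genes for such steps, 3 fell (ERG1, ERG11 and ERG3) and ERG25 did not pass. Of the other 6, ERG6 fell, a share of 16.7%, near the 18.1% of all genes that fell. The median over the oxygen-using genes was -1.01, -1.03 and -1.12 on replicates 1, 2 and 3, and that over the other genes was -0.18, -0.17 and -0.31. The difference was thus -0.83, -0.86 and -0.81, with a mean of -0.83 ± 0.026 (SD, n = 3). That narrow SD belongs to a difference of medians over few genes, and it does not describe how the genes vary. Within the oxygen-using genes the means ran from -1.52 to -0.062. The closeness of the arrays also depended on the genes counted. Without ERG11 the difference was -0.61, -0.998 and -0.77 on replicates 1, 2 and 3. With any 1 of the 10 genes left out, the difference lay between -0.61 and -1.05 on replicate 1, between -0.72 and -0.998 on replicate 2 and between -0.70 and -0.91 on replicate 3. No test is given, because the genes were chosen with earlier results of these data known.

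**Figure D2:**
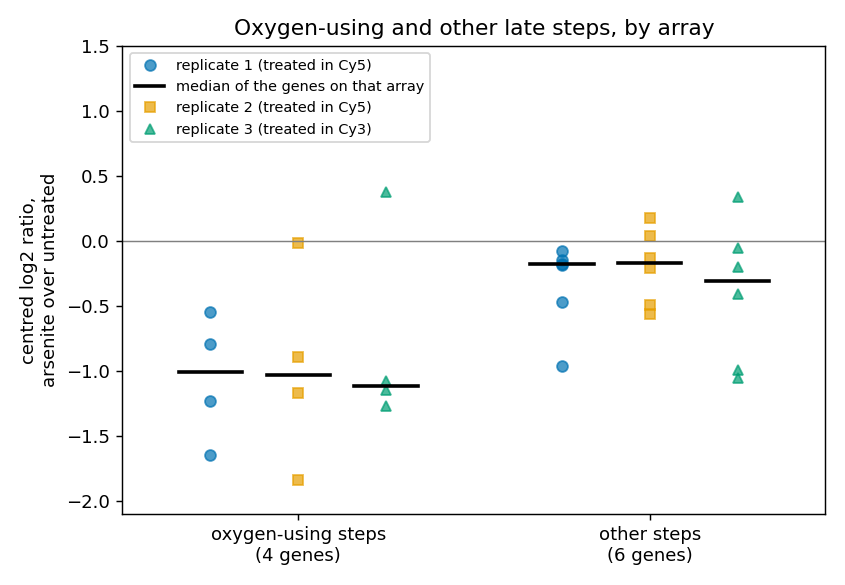
Centred log2 ratio of the 4 oxygen-using and the 6 other late steps on each array; each marker is a gene and each black line the median of the group on that array. The medians of the oxygen-using genes lie near -1 and those of the others between -0.31 and -0.17, while ERG25 on replicate 3 (0.37) and ERG6 show that single genes cross between the groups.

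The pathway ends with a pair of genes outside these 10. ERG5, a second cytochrome P450, which desaturates carbon 22 and also uses oxygen, had -0.70, -0.64 and -0.92. All arrays were low, and its mean of -0.75 ± 0.15 (SD, n = 3) passed (limma adjusted p = 0.00579), though not without replicate 1 (0.0726) or with the arrays as deposited (0.0899). ERG4, the C-24(28) reductase of the last step, had -0.23, -0.50 and 0.46 and did not pass. With both counted, 4 of 5 oxygen-using genes (80%) and 1 of 7 other genes (14.3%) fell, where 18.1% of all genes fell.

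ERG5 and ERG4 formed a list of 7 with 5 genes whose products are partners of these enzymes or act on the pathway (ERG28, ERG29, NCP1, CYB5 and DAP1). Of the 7, 3 fell and 0 rose by limma (4 and 0 at an unadjusted p of 0.05), with a median of -0.47. Over all genes 18.1% fell and 14.5% rose. Of the 5 without ERG5 and ERG4, NCP1 and CYB5 fell and the median was also -0.47. NCP1, the reductase that feeds electrons to the P450 enzymes, had -0.95, -0.64 and -1.18, and its mean was -0.93 ± 0.27 (SD, n = 3, limma adjusted p = 0.00189). CYB5, cytochrome b5, another electron carrier of sterol and lipid oxidation, had -1.01, -0.53 and -1.60 with a mean of -1.05 ± 0.53 (SD, n = 3, limma adjusted p = 0.00210). Both electron donors were thus low on every array, with replicate 2 nearest to 0. ERG28, the scaffold of the C-4 demethylation complex (-0.47), ERG29 (-0.28) and DAP1, a haem-binding partner of ERG11 (0.38), did not pass.

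Upstream of squalene, 3 of 10 genes of the mevalonate pathway fell and 0 rose by limma (3 and 1 at an unadjusted p of 0.05, the latter ERG9). Over all genes 18.1% fell and 14.5% rose. The list median was -0.32, close to that of the late genes, but the arrays ranked differently: the mevalonate genes were lowest on replicate 2 (median -0.67, against -0.18 and -0.20), on which the late genes were nearest to 0. HMG1, the main HMG-CoA reductase and the rate-limiting enzyme of the pathway, had -1.01, -1.89 and -0.65 and a mean of -1.18 ± 0.64 (SD, n = 3, limma adjusted p = 0.00139). HMG2, its second isoform, had a mean of -0.62 ± 0.34 (limma adjusted p = 0.0259), and did not pass without replicate 1 (0.0708) or replicate 2 (0.0869). MVD1, mevalonate diphosphate decarboxylase, had -0.82 ± 0.57 (limma adjusted p = 0.0114) and did not pass without replicate 2 (0.0523). Without replicate 2, HMG1 was the 1 gene of the list to fall. HMG1 was below HMG2 on all 3 arrays, although their ratios overlapped.

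At the junction of the early and late pathway, squalene synthase and squalene epoxidase differed. ERG9, which makes squalene, had 0.50, 0.29 and 0.70, above 0 on every array. Its mean of 0.50 ± 0.21 (SD, n = 3) missed the threshold (limma adjusted p = 0.0535). With an array left out it passed without replicate 2 (0.0202), but not without replicate 1 (0.329) or replicate 3 (0.187). The ratio of ERG1, which consumes squalene, lay below that of ERG9 by 1.57 ± 0.35 (SD, n = 3), and the arrays of the 2 genes did not overlap.

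**Figure D3:**
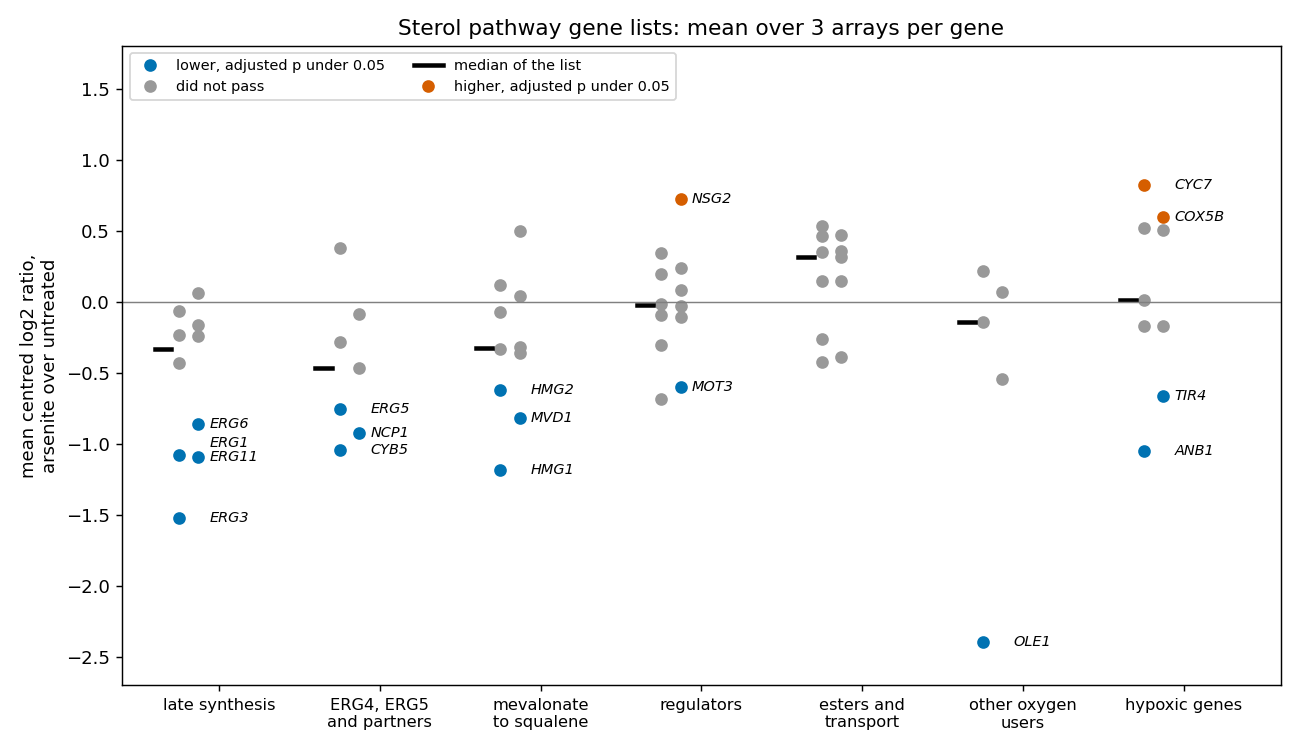
Mean centred log2 ratio over 3 arrays for each gene of 7 sterol-related lists; blue points fell, orange points rose and grey points did not pass the limma test, and black bars are list medians. The medians of the late genes (-0.33), of the list of ERG4, ERG5 and partners (-0.47) and of the mevalonate genes (-0.32) lie below 0, and that of the ester and transport genes (0.32) above it.

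Among 12 regulators of sterol synthesis 1 rose and 1 fell (8.33% each), where 14.5% of all genes rose and 18.1% fell. UPC2, the sterol-sensing activator, had -0.70, 0.15 and -1.52, which spans 0, and its mean of -0.69 ± 0.84 (SD, n = 3) did not pass (limma adjusted p = 0.0588). As for ERG7, replicate 2 was the array on the other side of 0, and the mean rested on the choice of arrays. It was -1.11 without replicate 2, which passed (limma adjusted p = 0.000383), -0.68 without replicate 1 (0.132) and -0.27 without replicate 3 (0.390). ECM22, its paralog, had -0.11, HAP1, the haem-responsive activator, 0.19, and ROX1, the repressor of hypoxic genes, 0.24; the limma adjusted p of these 3 genes ran from 0.357 to 0.702. MOT3, a repressor that acts on several ERG genes, fell with -0.73, -0.58 and -0.48 (mean -0.60 ± 0.13, SD, n = 3, limma adjusted p = 0.0210), but not without replicate 1 (0.287). NSG2, a homolog of mammalian INSIG that steadies Hmg2, rose with 0.63, 0.87 and 0.66 (mean 0.72 ± 0.13, SD, n = 3, limma adjusted p = 0.00725), and its call too was lost without replicate 1 (0.0785).

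Genes for storing sterols as esters, releasing them and carrying sterols across membranes gave no call by limma, with 0 of 11 lower and 0 higher. Over all genes the shares were 18.1% and 14.5%. At an unadjusted p of 0.05 there were 2 lower and 2 higher. The acyltransferases ARE1 and ARE2 had means of 0.32 and 0.35 and were above 0 on every array. YEH1 and YEH2, sterol ester hydrolases, had -0.43 and -0.39 and were below 0 on every array. The list median was 0.32, of opposite sign to that of the late synthesis genes, but single arrays gave 0.37, 0.084 and -0.057.

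Other oxygen-using enzymes of lipid and haem synthesis did not move as a group. OLE1, the fatty acid desaturase, fell on every array with -2.38, -3.12 and -1.68, a 5.26-fold lower mean (limma adjusted p = 8.44e-06). That is further than ERG3 went, and replicate 2 was the lowest array for both genes. SUR2 (0.22) and SCS7 (-0.15), hydroxylases of sphingolipid synthesis, HEM13 (0.069), the oxygen-using coproporphyrinogen oxidase, and HEM14 (-0.54) did not pass. The list median was -0.15, with 1 of 5 genes lower and 0 higher (2 and 0 at an unadjusted p of 0.05). That 1 of 5 (20%) lay near the 18.1% of all genes that fell.

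Hypoxic genes, which yeast turns up when oxygen or haem is short, were 2 of 9 lower (22.2%) and 2 higher (22.2%), near the 18.1% and 14.5% over all genes, with a median of 0.013. ANB1, the hypoxic form of translation factor eIF5A, fell with -0.79, -1.22 and -1.13 (mean -1.05 ± 0.23, SD, n = 3, limma adjusted p = 0.000693). It shares most of its sequence with HYP2, so its spots may also report that gene. TIR4, a cell wall mannoprotein, fell with a mean of -0.67 (limma adjusted p = 0.0128), a call lost without replicate 1 (0.0970). CYC7, the minor form of cytochrome c, rose with a mean of 0.82 ± 0.69 (limma adjusted p = 0.0168) and COX5B, the hypoxic subunit of cytochrome oxidase, with 0.60 ± 0.37 (0.0325). Neither rise passed without replicate 1 (limma adjusted p = 0.0708 and 0.0723) or without replicate 3 (0.0836 and 0.166).

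The genes that lie next to the 10 on the chromosomes were measured in 15 of 20 cases, going by the gene order of the RefSeq annotation R64. Beside the 4 genes that fell, 5 neighbours were measured, and 0 passed by limma in either direction (0 also at an unadjusted p of 0.05), with a median of -0.24. Of all genes, 32.7% passed, and 5 neighbours are few to set beside that share. Over all 15, 1 fell and 1 rose, both beside ERG2: TOM40 with a mean of -0.50 (limma adjusted p = 0.0442) and RAD14 with 0.80 (0.0234), named here after their values were seen. The genes nearest to ERG3 in their ratios on the 3 arrays, by Euclidean distance, were RPF2 (0.15), COS2 (0.17) and DIA2 (0.18), with means of -1.55, -1.53 and -1.56. With 3 arrays such a likeness describes size more than pattern. COS2 belongs to a family of near-identical subtelomeric genes, so its spots may report several.

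**Figure D4:**
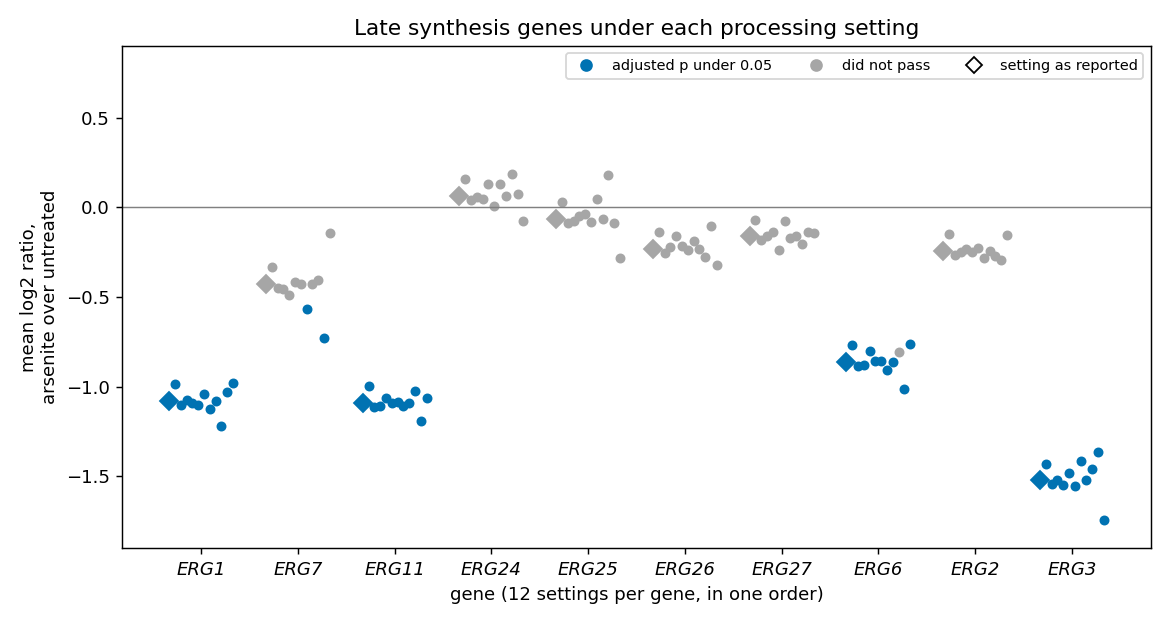
Mean log2 ratio of each late synthesis gene under 12 processing settings, of which diamonds are the setting reported and blue marks passed the limma test. ERG1, ERG11 and ERG3 passed in every setting, ERG6 in all but the one without replicate 1, and ERG7 in the ones with a dye effect and without replicate 2.

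Across 11 alternative settings, ERG3 had means from -1.74 to -1.36, ERG11 from -1.19 to -0.998 and ERG1 from -1.22 to -0.98. These 3 genes passed in all 11 and ERG6 in 10, with means from -1.01 to -0.76. The replicates labelled with the treated RNA in Cy5 gave, on their own, the same 4 calls without relying on the turned array. With the dye the same on both arrays, that fit cannot tell a dye effect from the treatment. Limma also gave every gene the same standard error in it. ERG24 and ERG25, whose means lay nearest to 0, were the members whose sign depended on the setting.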

How the data were processed

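Two-colour arrays of wild-type yeast, 0.2 mM arsenite for 1 h against untreated, were deposited as 1 table of 13056 spots by 3 arrays with 0 missing values. These values, deposited by the authors, were taken as log2 ratios; the sources used here do not give the scanner, background correction or normalization. Precision is limited by the number of arrays, and no intensities were in the table. Gene names came from the platform annotation (11138 with 1 symbol, 0 with several, 1918 with none). Replicate 3 was multiplied by -1, the spots of a gene were averaged, and each array was centred on its median over named genes. The mean over arrays was tested against 0, two-sided, in limma 3.58.1 (lmFit, then eBayes) under R 4.3.3 (prior degrees of freedom 10.8, residual 2). Adjustment was by Benjamini-Hochberg over 5539 genes, with a threshold of 0.05. The test was also run on simulated data with limma's own fitted spread, which cannot show whether that spread holds for these arrays. Tables and figures used Python 3.11.15, pandas 2.3.3 and matplotlib 3.10.9. The 10 members, the gene lists and the rule for naming genes were chosen with earlier results of these data known. That rule took all members, up to 6 genes past the test in each list, 12 pathway genes whatever their value and the 3 genes nearest to the lowest member; further genes are named to account for whole lists. Alternatives were other centrings, scaling, single spots, a dye term, robust empirical Bayes and each array left out. Promoter and protein sequences were not used here.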

Additional observations from a re-analysis of the deposited data

How the results depend on the processing

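The count of late synthesis genes that fell was 4 and stayed between 3 and 5 over 11 alternatives (3 to 5 with an array left out), with 0 higher in each. Over these settings the share of all genes that fell ran from 10.9% (without replicate 1) to 20.1% (centring within runs of 400 spots). The median of the late synthesis genes, -0.33, was -0.51 without replicate 2 and ran from -0.51 to -0.30 with an array left out. The difference between oxygen-using and other steps, -0.83, was -0.78 with centring within runs of 400 spots, -0.76 with the first spot only and -0.87 with the last spot only, and -0.84 to -0.82 with an array left out. Means near 0 changed sign without passing: ERG25 as deposited (0.031) and with a dye effect (0.047) and ERG4 as deposited (0.0051) and with a dye effect (0.048), and, with an array left out, ERG24 (-0.075 to 0.19), ERG25 (-0.28 to 0.18), ERG4 (-0.36 to 0.12) and ECM22 (-0.24 to 0.11). For these, and for the counts that follow, the cause was not tested. As deposited, 1 mevalonate gene, 0 regulators and 1 hypoxic gene fell, and 1 hypoxic gene rose. With the first spot only, 1 mevalonate gene and 2 ester and transport genes rose, and 1 hypoxic gene fell and 1 rose. With a dye effect, 1 mevalonate gene rose, 2 regulators fell, 1 ester and transport gene fell and 1 rose, and 2 other oxygen users fell. Centring within runs gave 1 mevalonate gene that rose and 2 other oxygen users that fell. Single calls were lost as deposited for ERG5, HMG2, MVD1, MOT3, COX5B and TIR4 (limma adjusted p from 0.0549 to 0.227), with the first spot only for HMG2, MOT3, CYC7 and TIR4 (0.0754 to 0.147) and within runs for HMG2 (0.0525). The fit as deposited has the same standard error for every gene. Calls were gained for ERG9 within runs (0.0106), with the first spot only (0.0491) and with a dye effect (0.0223), and for UPC2 with the first spot only (0.0458) and with a dye effect (6.26e-05); the fit with a dye effect has the same standard error for every gene. With an array left out, the ranges were 1 to 3 lower and 0 to 1 higher for mevalonate genes, 0 to 2 lower and 0 to 2 higher for regulators, 0 to 1 lower and 0 to 3 higher for ester and transport genes, 1 to 2 lower for other oxygen users, and 1 to 2 lower and 0 to 2 higher for hypoxic genes. Over all genes, 805 rose and 1004 fell as reported, 606 and 603 as deposited and 412 and 602 without replicate 1. Each array is itself a ratio of treated to untreated RNA, so the test of the mean ratio against 0 already uses that pairing. All arrays form 1 group. Robust empirical Bayes changed no call among the genes named under these settings. With no intensities, how far signal over background limits the low ratios is unknown.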
